A study of Mus musculus with 4 samples.

Results

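The genes described here are 9 members of the serotonin and noradrenaline system, Slc6a2, Slc6a4, Slc22a3, Maoa, Htr1b, Htr2a, Htr2b, Htr2c and Adra1a, which were chosen by symbol among the 32285 genes counted by single-nucleus RNA-Seq in mouse lungs. Lungs of 2 WT and 2 VEcad-TRF2DN-Tg (Tg) mice were measured, all on the C57/BL6J background and 8 to 9 weeks old per the labels. Whether this is the age before or after the hypoxia named next is not stated for these lungs. Per the study's methods, the mice were male, the Tg mice were heterozygous, and the lungs used for this assay had been exposed to chronic hypoxia in both genotypes, so that hypoxia is shared by all 4 mice and is not a comparison. The transgene encodes a dominant-negative variant of human TRF2, a protein of the telomere, driven in ECs by the VE-cadherin promoter, and it is not among the genes counted. Mouse Terf2 was at 48.5 to 60.8 CPM (transcripts of the gene per 1000000 transcripts counted) over the named nuclei of the 4 mice, so the transgene itself was not checked by these counts. The male sex given in the methods was checked with Ddx3y, at 84.1 to 125 CPM, and Xist, at 0.539 to 2.09.

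Serotonin and noradrenaline end their action when cells take them up and break them down. The transporters encoded by Slc6a2 (noradrenaline), Slc6a4 (serotonin) and Slc22a3 (organic cation transporter, for both amines) carry them into the cell, where monoamine oxidase A, encoded by Maoa, oxidizes them. The receptors encoded by Htr2a, Htr2b and Htr2c and the adrenoceptor encoded by Adra1a couple to Gq proteins and phospholipase C, whereas the receptor encoded by Htr1b couples to Gi. The pulmonary circulation is known for removing both amines from the blood, and serotonin is known to constrict pulmonary arteries and to act on the growth of their SMCs, which is why the system is followed in pulmonary hypertension.

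Transcripts were counted by unique molecular identifiers (UMIs), 1 for each transcript captured, and the deposited matrices hold 125261739 to 182014706 UMIs per mouse. Barcodes with at least 1500 UMIs numbered 26933 and 38543 in WT and 25269 and 44000 in Tg mice, with a median of 1860 to 2530 UMIs. They were clustered without the 9 genes, and 68039 of the 134745 barcodes fell into 21 classes named from marker genes, so that a class stands for nuclei like that cell type. The largest unnamed cluster, with no marker profile, held 55.9% and 60.8% of the barcodes of the WT mice and 3.19% and 23.4% of those of the Tg mice. No SMC, platelet, mast cell or NK cell class was found, and the 7 SMC markers summed to 3269 UMIs over all classes. The paper did name SMCs among its nuclei from these lungs and reported more of them in the Tg mice. SMCs are thus missing from the classes compared below, and no level in them is given. In the venous EC class, only 2 of the 7 venous markers were at their highest of all classes, and in the club class 2 of the 6 club markers. Barcodes with 300 to 800 UMIs served as empty droplets, which show the free RNA that enters every droplet, and they held 1949156 to 12600100 UMIs per mouse. In Tg replicate 2 they numbered only 2732. The largest unnamed cluster had a median of 1756 UMIs, and its pooled level of each of the 9 genes lay within the range of the empty droplets of the 4 mice. Whether that cluster held droplets without a nucleus was not tested. Levels are in CPM over all UMIs of the class in that mouse, and each is set beside the level in the empty droplets of the same mouse. From surfactant genes in the airway epithelium, club cell genes in AT1 and AT2 cells and both in the other classes, free RNA was estimated at 20.5 to 66.5% of the UMIs of a class, and the estimate was higher in both WT mice than in both Tg mice in 20 of 21 classes. Club cells also make some surfactant proteins, so that the estimate is an upper limit there. Below, above the free RNA means above the level of the empty droplets. Since free RNA was estimated at only a part of the UMIs of a class, a level at or under that line does not show that the class lacks the transcript. The named barcodes shared by any pair of libraries numbered 37 to 148, beside 30.4 to 118 expected from the number of barcodes alone. Levels across classes are given as descriptions with no test, since the classes are clusters of the same nuclei.

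Of the 9 genes, 8 had a highest class whose lowest level in any of the 4 mice was above the free RNA of that mouse, and the remaining gene, Slc6a4, had such a class in second place. In the heat map of levels over the free RNA, the highest class was venous ECs for Slc6a2 and Htr2a, alveolar fibroblasts for Slc22a3 and Adra1a, alveolar macrophages for Htr2c, general capillary ECs for Maoa, lymphatic ECs for Htr2b, ciliated cells for Htr1b and neuroendocrine cells for Slc6a4, followed for Slc6a4 by alveolar macrophages.

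**Figure D1:**
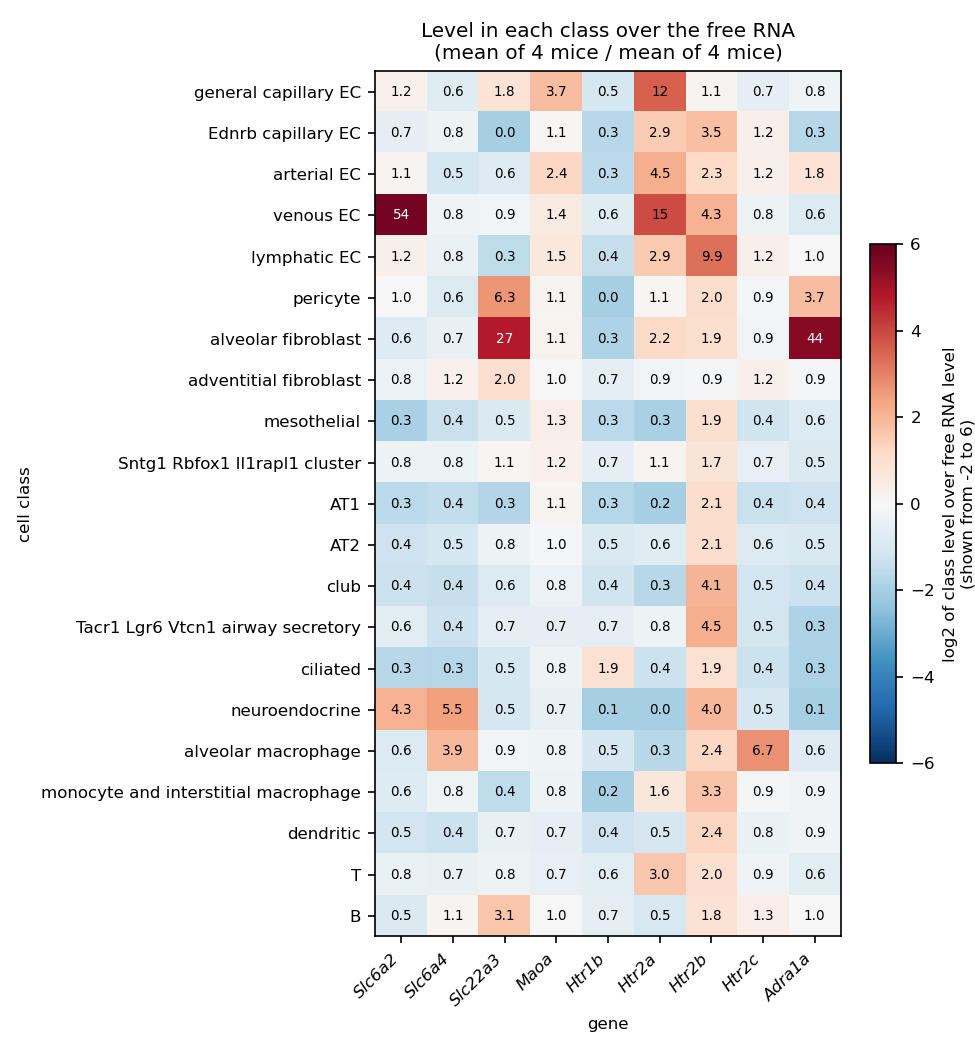
Rows are the 21 cell classes, columns the 9 genes, and each cell prints the mean level over the 4 mice divided by the mean level in the empty droplets, with colour on a log2 scale. Slc6a2 in venous ECs and Adra1a and Slc22a3 in alveolar fibroblasts are the darkest cells, and most other cells lie near or under 1, the level of the free RNA.

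For the pair of genes that stood above the free RNA in alveolar macrophages, the 250 bases upstream of the start are shown so that they can be compared. They are taken from RefSeq on GRCm38.p6, and 7 of the 9 genes matched that table, all but Slc6a2 and Adra1a. Both were searched on both strands for GAGGAA, the core of the PU.1 motif, TGTGGT, the core of the RUNX motif, and TTGCNNAA, a C/EBP motif, which belong to factor families known in macrophages. Matches are in capitals. The Htr2c window lies at chrX:146962263-146962512 on the plus strand and the Slc6a4 window at chr11:76998347-76998596 on the plus strand.
Htr2c: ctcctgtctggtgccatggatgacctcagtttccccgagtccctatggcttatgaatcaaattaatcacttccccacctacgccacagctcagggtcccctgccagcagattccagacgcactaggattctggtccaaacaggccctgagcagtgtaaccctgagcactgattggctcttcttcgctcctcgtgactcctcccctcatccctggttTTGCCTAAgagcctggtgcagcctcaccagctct
Slc6a4: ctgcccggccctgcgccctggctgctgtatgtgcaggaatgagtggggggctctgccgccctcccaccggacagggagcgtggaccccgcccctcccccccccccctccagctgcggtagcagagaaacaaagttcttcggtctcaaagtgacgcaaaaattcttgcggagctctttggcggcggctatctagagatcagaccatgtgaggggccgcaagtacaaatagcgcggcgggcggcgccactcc
The Htr2c window held 1 match to TTGCNNAA, 34 bases before the start, and the Slc6a4 window held no match to any of the 3 motifs. Over the 32851 promoters of the table, 23.3% of windows held GAGGAA, 14.0% held TGTGGT and 9.56% held TTGCNNAA. A match is a run of letters and not a site of binding.

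Slc6a2 (ENSMUSG00000055368, chromosome 8, 92960079 to 93001667, plus strand on GRCm38) encodes the noradrenaline transporter. In venous ECs its level was 989 and 654 CPM in WT and 486 and 522 in Tg mice. These values rest on 492 and 204 UMIs in WT and on 372 and 378 in Tg mice, and they were 48.5 to 64.9 times the level of the empty droplets. The class held 1.03% of all UMIs of the named classes and 54.1% of those of Slc6a2. In every mouse the venous class was the highest of the 21, and no other class was above the free RNA in all 4 mice. Between 52.7% and 70.5% of venous EC nuclei carried a Slc6a2 UMI, which became 38.8 to 58.2% with each nucleus thinned to 1500 UMIs. In AT2 cells, an epithelial class, the thinned share was 0.55 to 1.25%.

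Other EC classes were near the level of the empty droplets for Slc6a2. In general capillary ECs the level was 26.4 and 8.79 CPM in WT and 14.8 and 9.67 in Tg mice, which is 0.872 to 1.62 times that of the empty droplets. Free RNA was estimated at 41.1 to 57.2% of the UMIs of general capillary ECs, so that transcripts of their own are not excluded. In arterial ECs Slc6a2 ranged from 0 to 37.8 CPM on 0 to 8 UMIs per mouse, and in Ednrb capillary ECs from 0 to 18.3. The second highest mean, in neuroendocrine cells, came from 30 UMIs in 2 nuclei of 1 WT mouse, and the other 3 mice had 0, 4 and 1 UMIs.

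**Figure D2:**
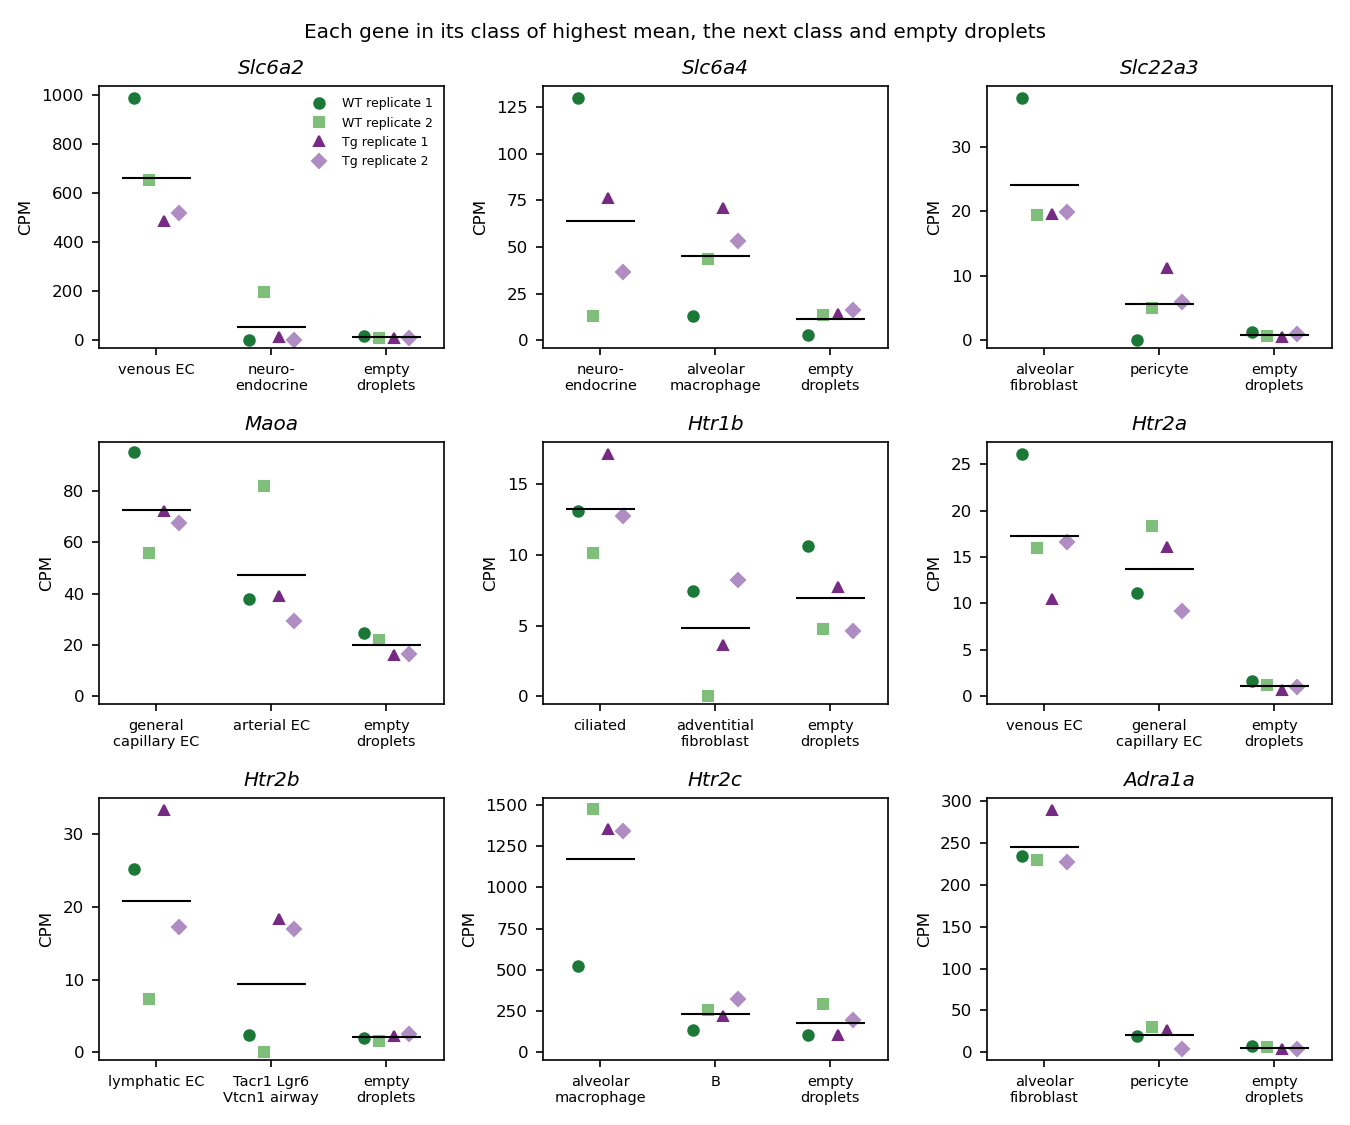
Each panel gives 1 gene, with CPM on the y axis for the class of highest mean, the class of second highest mean and the empty droplets. Points are the 4 mice, the bar is their mean, and the y axes differ between panels. In every gene but Htr1b and Slc6a4 all 4 points of the first class lie above all points of the empty droplets. In Slc6a4 the first class spreads from 13.1 to 129.8.

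Slc6a4 (ENSMUSG00000020838, chromosome 11, 76998603 to 77032340, plus strand) encodes the serotonin transporter, the target of the selective reuptake inhibitors. In alveolar macrophages its level was 13.3 and 43.4 CPM in WT and 71.0 and 53.1 in Tg mice, on 36, 312, 570 and 742 UMIs in the same order. WT replicate 1 was the lowest in this class and also in the empty droplets, where Slc6a4 was at 2.70 CPM beside 13.4 to 16.4 in the other 3 mice. Relative to the empty droplets of the same mouse, alveolar macrophages were at 4.91, 3.23, 5.03 and 3.23 times. This was the only class above the free RNA in all 4 mice. The thinned share of alveolar macrophages with a UMI was 2.00 to 9.41%, and that of AT2 cells 0.16 to 1.17%.

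Neuroendocrine cells had the highest mean of Slc6a4, with 129.8 and 13.1 CPM in WT and 76.1 and 36.8 in Tg mice. These came from 11, 2, 23 and 21 UMIs in 15, 16, 68 and 110 nuclei, and WT replicate 2 was not above its free RNA. The 2 classes overlapped, and neuroendocrine cells were above alveolar macrophages in 2 of 4 mice. The class is also the least secure of the 21, since the doublet score would remove all but 8, 6, 0 and 1 of its nuclei.

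In the ECs of blood vessels as a whole, the level of Slc6a4 did not exceed that of the empty droplets. Over these 4 classes, 4 and 20 UMIs in WT and 45 and 50 in Tg mice gave 1.51, 7.73, 13.1 and 10.7 CPM. These levels were 0.561 to 0.925 times those of the empty droplets. Free RNA was estimated at 48.2 and 50.8% of blood EC UMIs in WT and 35.0 and 38.9% in Tg mice. A ratio under 1 thus does not show that ECs lack Slc6a4, and this was not tested. An antisense transcript, Gm12343, overlaps the Slc6a4 annotation on the opposite strand, and whether the counting used strand is not given in the sources used here.

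**Figure D3:**
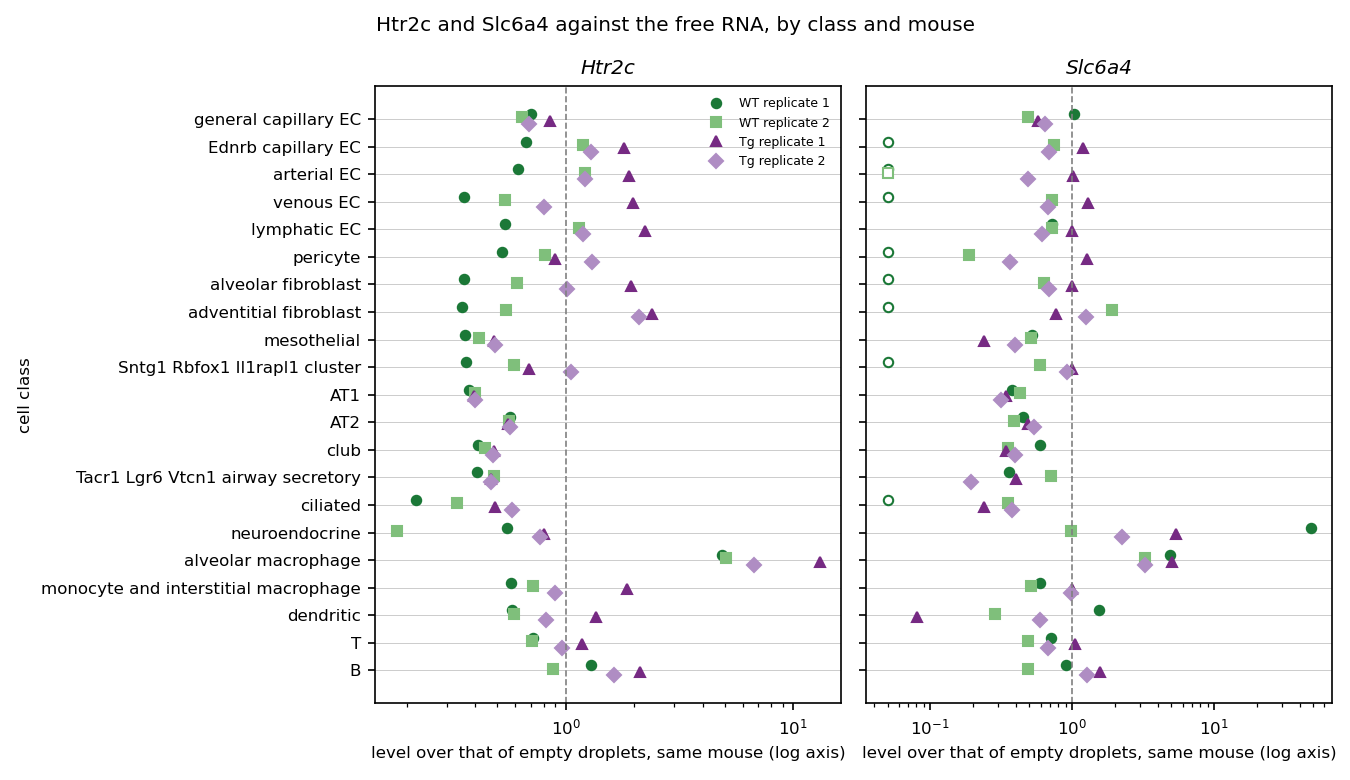
The level of Htr2c (left) and Slc6a4 (right) divided by that of the empty droplets of the same mouse is on the x axis (log scale), with the 21 classes on the y axis and 1 marker per mouse. Open markers at the left edge stand for 0 UMIs, and the dashed line is the free RNA. Alveolar macrophages lie right of the line in all 4 mice for both genes, at 4.86 to 13.1 times for Htr2c and 3.23 to 5.03 times for Slc6a4.

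Slc22a3 (ENSMUSG00000023828, chromosome 17, 12418960 to 12507704, minus strand) encodes the organic cation transporter that takes up amines with low affinity. Its level in alveolar fibroblasts was 37.5 and 19.4 CPM in WT and 19.5 and 19.9 in Tg mice, on 51, 48, 39 and 58 UMIs. WT replicate 1 was the highest, and the other 3 mice were close to each other. The level was 19.4 to 35.1 times that of the empty droplets, and 58.5% of the 335 UMIs of the named classes lay in this class, which held 3.93% of all UMIs. Pericytes were second, with 0, 5.03, 11.2 and 5.99 CPM on at most 5 UMIs per mouse. Plg overlaps the Slc22a3 annotation on the opposite strand.

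Maoa (ENSMUSG00000025037, X chromosome, 16619698 to 16687818, plus strand) encodes the oxidase that degrades serotonin and noradrenaline on the outer mitochondrial membrane. It was above the free RNA of all 4 mice in 6 classes, 4 of them EC classes, and Htr2b was the only other of the 9 genes above it in as many classes. In general capillary ECs its level was 95.1 and 55.7 CPM in WT and 72.0 and 67.7 in Tg mice, 2.53 to 4.47 times that of the empty droplets. Arterial ECs followed with 37.8, 82.0, 39.2 and 29.3, and the values of these 2 classes overlapped. Venous ECs were at 24.8 to 33.2 and lymphatic ECs at 21.0 to 38.7, which is 1.13 to 2.13 times the free RNA. In Ednrb capillary ECs the level was 20.4 to 21.3 and not above the free RNA in the WT mice.

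The 4 serotonin receptors had 4 different classes of highest mean. Htr2a (ENSMUSG00000034997, chromosome 14, 74640840 to 74709494, plus strand), known for vasoconstriction and platelet activation, rested on few UMIs. In venous ECs it reached 26.1 and 16 CPM in WT and 10.5 and 16.6 in Tg mice, on 13, 5, 8 and 12 UMIs. In general capillary ECs it was at 11.1, 18.3, 16.1 and 9.19, on 16 to 25 UMIs per mouse. Both classes were above the free RNA in every mouse, at 12.7 to 16.5 times in venous and 6.86 to 25.4 times in general capillary ECs, and their values overlapped. In pericytes, 4 UMIs were found in 1 Tg mouse and 0 in the other 3 mice, which allows 6.74 to 12 CPM.

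Htr2b (ENSMUSG00000026228, chromosome 1, 86099026 to 86111970, minus strand) encodes a receptor tied to heart valve disease and pulmonary hypertension under serotonergic drugs. Its highest mean was in lymphatic ECs, with 25.2 and 7.29 CPM in WT and 33.3 and 17.3 in Tg mice, on 13, 6, 31 and 19 UMIs. The genotypes overlapped there, and the level was 4.74 to 14.5 times that of the empty droplets. This was the only class at 2 times the free RNA or more in all 4 mice. In blood vessel ECs together, Htr2b was at 5.68 and 0.773 in WT and 6.97 and 7.27 in Tg mice, on 2 to 34 UMIs.

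Htr2c (ENSMUSG00000041380, X chromosome, 146962513 to 147197277, plus strand) encodes a receptor best known from the brain, where it acts on appetite. In alveolar macrophages its level was 522 and 1472 CPM in WT and 1354 and 1343 in Tg mice, on 1417, 10577, 10864 and 18777 UMIs. WT replicate 1 was the lowest, and the other 3 mice lay close together. The class held 65.1% of the 63909 Htr2c UMIs of the named classes beside 14.3% of all UMIs. Its level was 4.86, 5.06, 13.1 and 6.75 times that of the empty droplets, and no other class was above the free RNA in all 4 mice. Thinned to 1500 UMIs, 32.0%, 67.9%, 69.3% and 67.2% of alveolar macrophages carried a UMI. The free RNA itself was rich in Htr2c, at 107 and 291 CPM in the empty droplets of the WT mice and 103 and 199 in those of the Tg mice. AT2 cells, as a class not known for the gene, were at 0.554 to 0.566 times that level in the 4 mice, and 8.01 to 24.9% of their thinned nuclei carried a UMI. Monocytes and interstitial macrophages were at 61.3, 209, 192 and 178 CPM, which is 0.571 to 1.86 times the free RNA, and they were below alveolar macrophages in every mouse.

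Htr1b (ENSMUSG00000049511, chromosome 9, 81628291 to 81633828, minus strand), a receptor known to constrict pulmonary arteries, was low in every class. Ciliated cells had 13.1 and 10.1 CPM in WT and 17.1 and 12.7 in Tg mice, on 24, 15, 61 and 56 UMIs. This was the only class above the free RNA in all 4 mice, at 1.24 to 2.76 times. An antisense transcript overlaps the gene on the opposite strand.

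Adra1a (ENSMUSG00000045875, chromosome 14, 66635251 to 66771168, plus strand) encodes an adrenoceptor known for contraction of smooth muscle. In alveolar fibroblasts its level was 234 and 229 CPM in WT and 289 and 227 in Tg mice, on 318, 568, 578 and 659 UMIs. The 4 mice lay close together, at 31.7 to 62.7 times the empty droplets. This class held 76.7% of the 2768 Adra1a UMIs of the named classes, and 22.5 to 29.7% of its thinned nuclei carried a UMI beside 0.328 to 0.717% of AT2 cells. Pericytes were second, with 3.59 to 30.2 CPM, and Tg replicate 2 was under its free RNA there.

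The genes whose levels over the 21 classes were most like those of a member are given as Pearson's r of log2(CPM + 10) between class means, among 7549 genes that reach 50 CPM in a class. The classes share their libraries and differ in depth, and genes are not independent replicates. Slc6a2 was followed by Lhx6 (r = 0.962), Kirrel3 (0.896) and Samd5 (0.890). Slc22a3 was most like Adra1a itself (0.971), and both were followed by Gria1 (0.970 and 0.969) and Fgfr4 (0.967 and 0.960). Htr2c was most like Cpne5 (0.974), Rab44 (0.965) and Gm47507 (0.956). Maoa was followed by Sox17 (0.844) and Bmp6 (0.837), Htr2a by Mmp28 (0.908), and Htr2b by Sgsm1 (0.756) and F8 (0.749), with lower values than the other genes. Fgfr4 is on the marker list of alveolar fibroblasts and Sox17 on that of arterial ECs. Markers were used to cluster and name the classes, so that the likeness of these genes is set in part by how the classes were made.

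The genotypes were then compared within each class, which asks whether telomere dysfunction in ECs goes with other levels of these genes. UMIs were summed per mouse and class and tested with edgeR's quasi-likelihood test with Benjamini-Hochberg adjustment over all genes of the class. Of 91 tests of the 9 genes over the 21 classes, 7 passed an adjusted p of 0.05, which is 7.69%, beside 7.36% of all genes tested in these classes. The share of the 9 genes was thus near that of all genes in this test, whereas with DESeq2 it was 4.40% beside 7.14%, and without WT replicate 2 it was over that of all genes, at 21 of 105 tests beside 12.3%. Of the 7 calls, 5 were Htr2b, higher in the Tg mice, and the others were 1 call each of Htr2c and Slc6a2. In 5 of these 7 calls, all but Htr2b in club and AT2 cells, the gene passed the filter on low counts only through the genotype in which it was higher, so that the count of calls is a description and supports nothing. With no filter each of the 7 passed as well. The labels do not say whether the mice were littermates, and for a single value the smallest two-sided p of an exact permutation test is 0.333 with 2 mice per genotype.

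Htr2b was called higher in the Tg mice in 4 epithelial classes and in alveolar macrophages. In the other classes where it was tested, its log2 fold change was also positive and did not pass. It was 2.81 ± 0.71 in ciliated cells (edgeR adjusted p = 0.093) and 1.55 ± 0.59 in mesothelial cells (edgeR adjusted p = 0.13). Alveolar fibroblasts were at 1.33, monocytes and interstitial macrophages at 1.30 and lymphatic ECs at 0.78 (edgeR adjusted p = 0.26 to 0.48). In club cells, the secretory cells of the airway, Htr2b was at 2.65 and 2.60 CPM in WT and at 17.1 and 11.9 in Tg mice, on 15 and 16 against 145 and 144 UMIs. The log2 fold change was 2.47 ± 0.35 (SE, edgeR adjusted p = 0.02), in a class with 11.6% of all genes called. In the airway secretory class named for Tacr1, Lgr6 and Vtcn1, the WT mice had 5 and 0 UMIs and the Tg mice 49 and 37, with 2.43, 0, 18.4 and 16.9 CPM. A count of 0 in WT replicate 2 allows 5.71 CPM. The log2 fold change was 3.19 ± 0.63 (SE, edgeR adjusted p = 0.016), with 10.2% of all genes called. Without WT replicate 1, which leaves the WT mouse with 0 UMIs alone, the fitted value was 7.99 (adjusted p = 0.042), which depends on the prior count of the fit. Both Tg mice were above both WT mice in club cells and in the Tacr1 Lgr6 Vtcn1 airway secretory class, which adds no support, since the test picked these classes.

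In AT2 cells, which make surfactant, Htr2b was at 1.53 and 1.64 CPM in WT and 8.94 and 5.18 in Tg mice (log2 fold change 2.19 ± 0.43, edgeR adjusted p = 0.036). In AT1 cells, which form the surface for gas exchange, the levels were 2.35 and 1.10 against 7.56 and 6.48 on 7, 5, 25 and 20 UMIs (log2 fold change 2.16 ± 0.53, edgeR adjusted p = 0.039). In alveolar macrophages they were 2.58 and 1.25 against 10.1 and 6.22 on 7, 9, 81 and 87 UMIs (log2 fold change 2.23 ± 0.52, edgeR adjusted p = 0.049). The genotypes did not overlap in these 3 classes, which adds no support, since the classes were picked by the test. In them 11.8% (AT2), 13% (AT1) and 10.6% (alveolar macrophages) of all genes were called. In both Tg mice, Htr2b was 2.02 to 8.00 times the level of the empty droplets in these 5 classes, whereas in the WT mice it was 0 to 1.69 times.

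**Figure D4:**
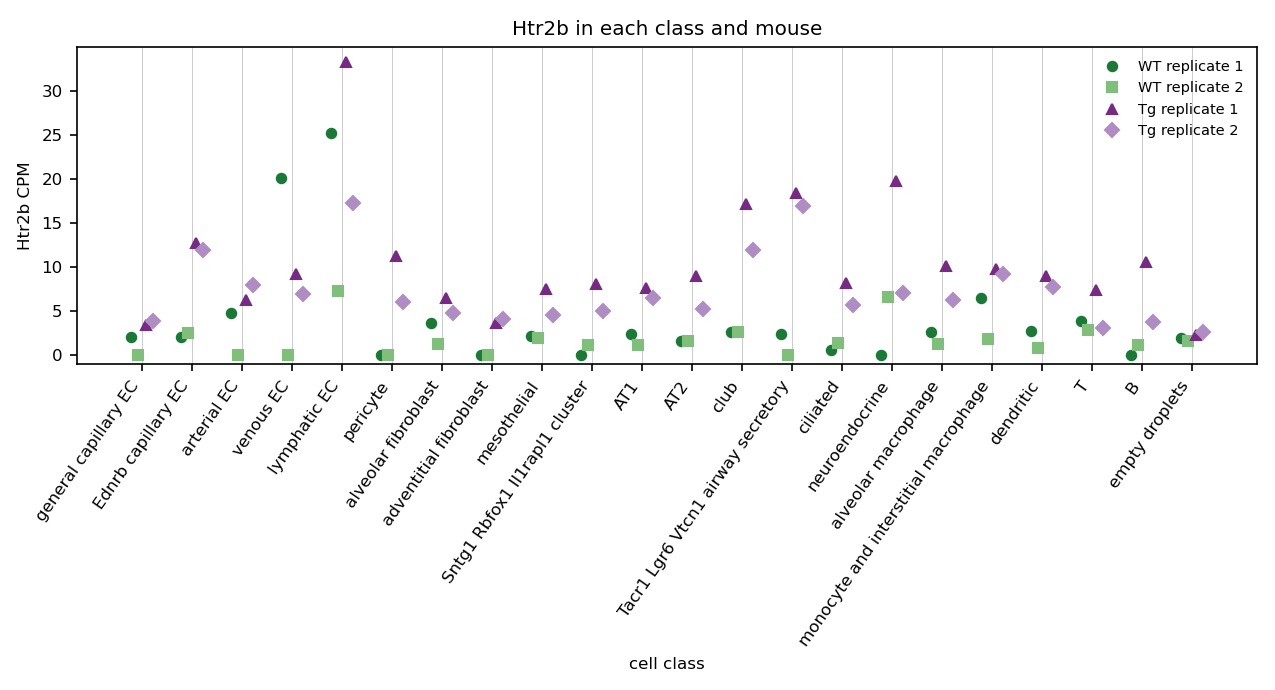
Htr2b CPM (y axis) are shown for the 21 classes and the empty droplets (x axis), with 1 marker per mouse. In club and Tacr1 Lgr6 Vtcn1 airway secretory cells the Tg mice lie between 11.9 and 18.4 and the WT mice between 0 and 2.65, whereas in lymphatic ECs the genotypes overlap.

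In the empty droplets Htr2b was at 1.98 and 1.54 CPM in WT and 2.30 and 2.57 in Tg mice, on 11, 11, 29 and 5 UMIs (log2 fold change 0.74 ± 0.48, edgeR adjusted p = 0.28). The estimated share of free RNA moved with genotype in these classes, for example 55.3% and 55.4% of the UMIs of club cells in WT and 40.0% and 41.3% in Tg mice. The markers of some of these classes moved with genotype too. The 6 club markers summed to 12627 and 13373 CPM in club cells of the WT mice and to 54787 and 24661 in those of the Tg mice. In the empty droplets they summed to 20510.1 and 18211 against 141589.9 and 50475. The 7 AT2 markers summed to 8940.4 and 10333 in AT2 cells under WT and to 18124 and 16181 under Tg. The 7 alveolar macrophage markers went the other way in their class, at 9833 and 10369 under WT and 6902 and 8913 under Tg. The 6 AT1 markers, at 9369 to 10229 in AT1 cells, overlapped between genotypes. So did the 3 markers of the Tacr1 Lgr6 Vtcn1 airway secretory class, at 2191 and 1661 under WT and 2007 and 1512 under Tg. With the free RNA subtracted, the log2 fold changes of the 5 classes were 2.40 to 3.72 and none of the adjusted p passed, at 0.054 in club cells and up to 0.25 in alveolar macrophages. Without Tg replicate 1, they were 1.69 to 3.09, with adjusted p from 0.081 to 0.30. Without Tg replicate 2, club and Tacr1 Lgr6 Vtcn1 airway secretory cells passed, and the adjusted p was 0.055 in AT2, 0.091 in AT1 and 0.095 in alveolar macrophages. Without WT replicate 2 it was 0.11 in AT1 and 0.10 in alveolar macrophages. DESeq2 called 4 of the 5, all but AT1. Psmd1, which overlaps Htr2b on the opposite strand, had log2 fold changes of -0.12 to 0.23 in these classes (edgeR adjusted p at least 0.52). The part of the free RNA and of these markers in the Htr2b difference was not tested.

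The other 2 calls were in small sums, and DESeq2 made neither of them (adjusted p = 0.067 for Htr2c and 0.12 for Slc6a2). Htr2c in adventitial fibroblasts was at 37.4 and 159 CPM in WT and 248 and 417 in Tg mice, on 5, 25, 69 and 102 UMIs from 32 to 92 nuclei per mouse. The log2 fold change was 1.82 ± 0.44 (SE, edgeR adjusted p = 0.028, 4.98% of all genes called), and the level was over the free RNA only in the Tg mice. The sum of the 7 alveolar macrophage markers in this class is given here because Htr2c was highest in those cells, and it was 1382 and 3118 CPM in WT and 1846 and 3781 in Tg mice. The part of those markers in the result was not tested. Without WT replicate 1 the adjusted p was 0.088, without WT replicate 2 the log2 fold change was 3.16 and the adjusted p 0.44, and with the free RNA subtracted they were 3.20 and 0.22. Slc6a2 in the Tacr1 Lgr6 Vtcn1 airway secretory class was at 8.75 and 17.1 against 2.63 and 2.28 CPM, on 5 to 18 UMIs per mouse (log2 fold change -2.18 ± 0.58, edgeR adjusted p = 0.047). It was under the free RNA in 3 of the 4 mice, and with any 1 mouse left out the adjusted p was 0.12 to 0.27. With the free RNA subtracted it did not pass the filter on low counts.

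In ECs, in which the transgene is driven, edgeR called none of the 9 genes with all 4 mice. With the 4 blood EC classes together, 7 of the 9 genes passed the filter on low counts, 0 were called, 0 had an unadjusted p under 0.05, and DESeq2 called 0. In the same test 8.59% of all 13603 genes were called. The median log2 fold change was 0.13 over these 7 genes and 0.03 over all genes. Slc6a2 in venous ECs had a log2 fold change of -0.67 ± 0.28 (SE, edgeR adjusted p = 0.21, unadjusted 0.036), and WT replicate 1 was the highest of the 4 mice. Without that mouse the change was -0.32. Of 4 genes tested in venous ECs, 2 had an unadjusted p under 0.05, beside 1729 of all 8790 genes, Slc6a2 and Htr2c (log2 fold change 1.05 ± 0.46, edgeR adjusted p = 0.24). Htr2c in venous ECs was at 38.2 and 157 CPM against 204 and 159, under the free RNA in 3 mice. Maoa in general capillary ECs differed by -0.06 ± 0.28 (SE, edgeR adjusted p = 0.91) and Htr2a in venous ECs by -0.66 ± 0.53 (SE, edgeR adjusted p = 0.54). Slc6a4 in blood ECs had a log2 fold change of 1.38 ± 0.60 (SE, edgeR adjusted p = 0.18), beside 1.14 ± 0.64 in the empty droplets (edgeR adjusted p = 0.21). That no gene was called in ECs depended on single mice and settings. Without WT replicate 2, 3 of 8 genes passed in blood ECs, beside 2912 of all 14608 genes, Slc6a2 (log2 fold change -1.02), Slc6a4 (2.90) and Htr2c (1.29), and Htr2c passed in Ednrb capillary, arterial and lymphatic ECs (1.65, 1.76 and 1.98). Without WT replicate 1, Htr2b passed in blood ECs (3.18), with no filter on low counts Slc6a4 did (1.37), and with the replicate number as a block Htr2c passed in venous ECs (1.14).

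In the classes where the remaining genes were highest, the differences did not pass either. Htr2c in alveolar macrophages had a log2 fold change of 0.44 ± 0.46 (SE, edgeR adjusted p = 0.53), and Slc6a4 in the same class 1.08 ± 0.48 (SE, edgeR adjusted p = 0.18). In alveolar fibroblasts, Adra1a differed by 0.14 ± 0.21 (SE, edgeR adjusted p = 0.72) and Slc22a3 by -0.51 ± 0.37 (SE, edgeR adjusted p = 0.43). Without WT replicate 2, Slc6a4 in alveolar macrophages passed (log2 fold change 2.21, edgeR adjusted p = 0.0070), as did Htr2c (1.36, edgeR adjusted p = 0.0092) and Slc6a2, beside 3039 of all 16114 genes called in that fit, WT replicate 1 being the mouse with low Slc6a4 in macrophages and in the free RNA. The share of all genes called was 12.4% in general capillary ECs, 5.46% in Ednrb capillary ECs, 3.72% in arterial ECs, 5.07% in venous ECs, 5.27% in lymphatic ECs, 5.03% in pericytes, 5.52% in alveolar fibroblasts and 9.89% in mesothelial cells. It was 3.08% in the cluster led by Sntg1, Rbfox1 and Il1rapl1, 2.10% in ciliated cells, 1.82% in neuroendocrine cells, 3.79% in monocytes and interstitial macrophages, 5.70% in dendritic cells, 6.49% in T cells and 3.67% in B cells. In the empty droplets 25.6% of genes were called, with 0 of the 7 members tested called with all 4 mice by edgeR or DESeq2 and 0 under an unadjusted p of 0.05. Slc6a4 was called there without WT replicate 2, with the replicate number as a block and with no filter on low counts.

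**Figure D5:**
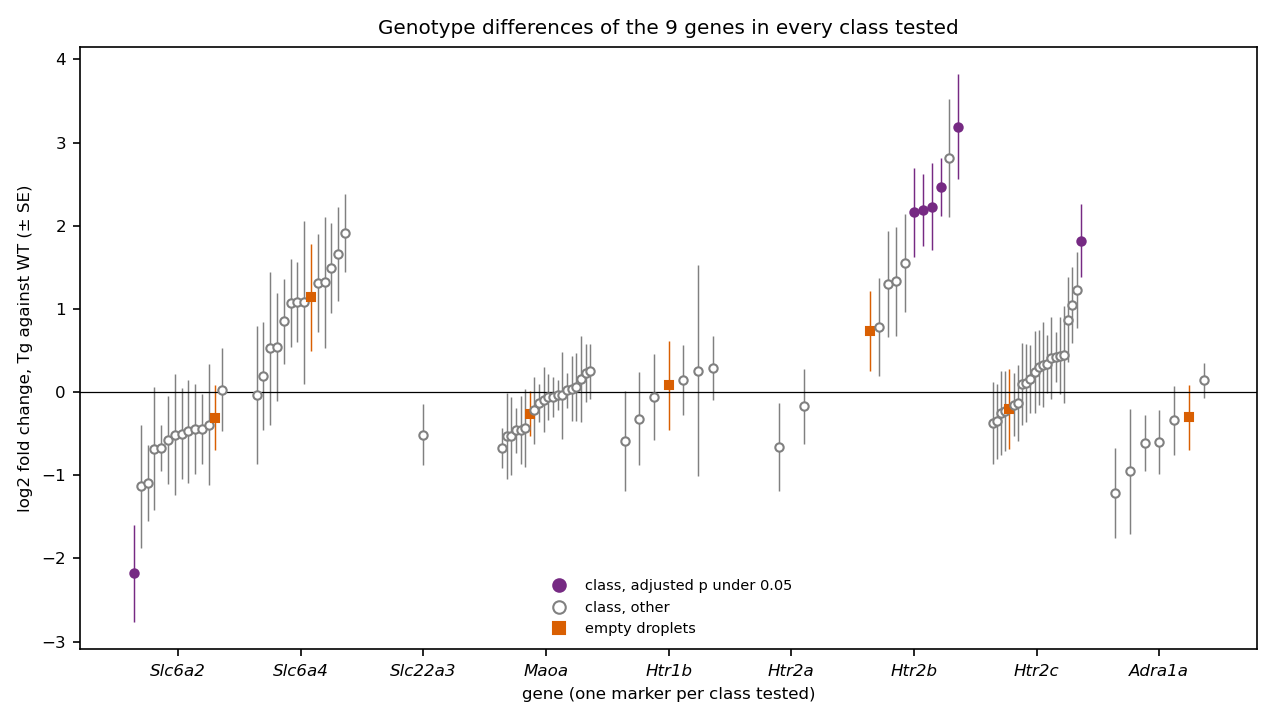
The log2 fold change of Tg against WT (y axis, bars are SE) is shown for every class tested and for the empty droplets, by gene (x axis). Filled circles passed an adjusted p of 0.05, open circles did not, and squares are the empty droplets. The 5 filled Htr2b points lie between 2.16 and 3.19, above the 0.74 of the empty droplets.

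Of 38 other genes of both amine pathways, 13 were above the free RNA of all 4 mice in their highest class. This count too is a description, since the class was picked as the highest and the share of all genes was not counted. Of 5 genes of serotonin making and storage, 2 were highest in neuroendocrine cells, where Ddc, which makes serotonin from its precursor, was at 224, 190.1, 172 and 256 CPM and the vesicular transporter Slc18a1 at 118, 98.3, 66.2 and 82.3. The other 3 were not above the free RNA of all 4 mice in their highest class. The tryptophan hydroxylase genes Tph1 and Tph2, which encode the first enzyme of serotonin synthesis, had 7 and 24 UMIs over all classes. Slc18a2 was at 0 to 12.3 CPM in adventitial fibroblasts, on 0 to 3 UMIs per mouse. Its mean there (7.63) was close to that in alveolar macrophages (7.43), on 7 and 17 UMIs in WT and 112 and 151 in Tg mice. In alveolar macrophages Slc18a2 was above the free RNA of every mouse. The other serotonin receptors above the free RNA were Htr7 in dendritic cells (599, 498, 201 and 299.8), Htr4 in the Tacr1 Lgr6 Vtcn1 airway secretory class (54.4, 36.2, 68.0 and 78.0), both of which couple to Gs, and Htr1f in alveolar macrophages (43.8, 1.95, 1.74 and 1.93), where 1 WT mouse held most of the UMIs. Of the adrenoceptors, Adra1b was highest in adventitial fibroblasts (12.3 to 31.8 CPM, on 2 to 5 UMIs per mouse), Adrb3 in alveolar fibroblasts (16.2 to 39.5) and Adrb1 in general capillary ECs (54.9 to 103). Among genes of Gq signalling, Plcb1 was highest in general capillary ECs (2385 to 3313), and Plcb4 and Gnaq in venous ECs (704 to 1138 and 1172 to 2069.7). For the latter genes the next EC class had a nearly equal mean. Plcb4 was at 881 CPM in venous and 868 in general capillary ECs, and Gnaq at 1468 in venous and 1453 in arterial ECs. The degrading enzyme Maob was highest in AT2 cells (79.6 to 101).

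Of 260 tests of these genes over the 21 classes, 34 passed (13.1%, beside 7.36% of all genes), with higher levels under Tg in 19 and lower levels in 15. Of these calls, 15 were Aldh2, higher under Tg, and 10 were Htr7, lower under Tg. Aldh2, the aldehyde dehydrogenase after monoamine oxidase, was at 100.4 and 132 CPM in club cells of the WT mice and 238 and 223 in those of the Tg mice (log2 fold change 0.99 ± 0.17, edgeR adjusted p = 0.027). In the empty droplets it was at 106 and 105 CPM under WT and at 294 and 245 under Tg (1.62 ± 0.29, edgeR adjusted p = 0.019). Htr7 was lower in dendritic cells (log2 fold change -1.10 ± 0.22, edgeR adjusted p = 0.023), and in the empty droplets it was at 30.9 and 21.4 CPM in WT and 1.51 and 4.62 in Tg mice (-3.20 ± 0.49, edgeR adjusted p = 0.018). Slc18a2, the second vesicular transporter, was higher in AT2 cells (1.86 ± 0.40, edgeR adjusted p = 0.042), alveolar macrophages (2.33 ± 0.36, edgeR adjusted p = 0.023) and T cells (4.22 ± 0.78, edgeR adjusted p = 0.028), in the last on 0 and 2 UMIs under WT and 14 and 49 under Tg. Plcb4 was lower in AT2 cells (-0.61 ± 0.13, edgeR adjusted p = 0.041), in alveolar macrophages (-1.04 ± 0.22, edgeR adjusted p = 0.038) and in the empty droplets (-0.94 ± 0.25, edgeR adjusted p = 0.036). Gnaq was lower in AT1 cells (-0.84), mesothelial cells (-0.81) and the empty droplets (-1.47), and Htr4 was higher in lymphatic ECs (2.33, on 2 and 3 UMIs under WT and 14 and 25 under Tg) and lower in AT2 cells (-1.82). In the empty droplets the values were -1.73 for Htr4 (edgeR adjusted p = 0.058) and 1.21 for Slc18a2 (edgeR adjusted p = 0.13). Of the 34 calls, 13 passed the filter only through the genotype with the higher level. These were every Htr7 call but that in dendritic cells, both Htr4 calls, Aldh2 in adventitial fibroblasts and Slc18a2 in T cells. The counts of calls are thus descriptions and support nothing. The part of the free RNA in these differences was not tested, and with it subtracted 2 of 195 tests passed (1.03%), beside 1.08% of all genes.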

How the data were processed

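The authors deposited 1 matrix of UMI counts per mouse (32285 genes, every barcode), made with Cell Ranger 6.1.1 and its option to count introns, on mm10 per the labels, neither filtered nor cleared of free RNA. These counts were used as deposited. The 9 genes and the lists of markers and pathway genes were chosen with earlier results of these data known. Barcodes with at least 1500 UMIs were clustered over the 4 mice together (2000 variable genes without the 9 genes, 40 principal components, 8 neighbours per mouse, Leiden resolution 2.0), and a cluster was named where at least 3 markers of a list were raised and the mean over that list was high enough, while cycling clusters and those with the leading genes of a second class stayed unnamed, which also served against doublets; these naming rules were set with the data in view. Levels are CPM over the UMIs of the class in each mouse. UMIs were summed per class and mouse, filtered with a minimum count of 10, scaled by TMM and tested with edgeR 4.0.16 in R 4.3.3 (quasi-likelihood, Benjamini-Hochberg, threshold 0.05). The test was tried on simulated data. Genes described in full were each of the 9 in its class of highest mean, in ECs and in each class called, and the pathway genes were those called in a class described or above the free RNA in all 4 mice. Python 3.11.15, igraph 0.11.9 and leidenalg 0.10.2 were used. Alternatives were DESeq2 1.42.0, total UMIs without TMM, no filter, a replicate block, each mouse left out, free RNA subtracted, highest doublet scores left out, at least 2500 UMIs, clusters in each mouse and other empty droplets. The levels that zero counts are said to allow hold counting error only and no spread between mice, and gene positions are those of GENCODE M21 on GRCm38. The labels name no separate litters or days, so p-values measure the spread between these 4 mice.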

Additional observations from a re-analysis of the deposited data

How the results depend on the processing

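Calls of the 9 genes over the classes (7 of 91 tests) became 15 of 187 with no filter on low counts (8.02%, beside 8.91% of all genes), 4 of 91 with DESeq2 (4.40% beside 7.14%), 4 of 71 with clusters found in each mouse (14 classes, 5.63% beside 8.51%), 1 of 63 with the free RNA subtracted (Htr2c in club cells, 1.59% beside 1.08%), and 2 to 21 with each mouse left out (2 of 100 without Tg replicate 1, 3 of 101 without Tg replicate 2, beside 4.99% of all genes, 21 of 105 without WT replicate 2, beside 12.3%). Calls of the pathway genes (34) of 260 tests became 68 of 496 with no filter, 18 of 237 with at least 2500 UMIs (7.59% beside 6.22% of all genes), 2 of 195 with the free RNA subtracted and 5 to 64 with each mouse left out (5 of 275 without Tg replicate 1, 64 of 275 without WT replicate 2). Calls over all genes and classes (17091) became 3634 of 242108 without Tg replicate 1, 30936 without WT replicate 2 and 1988 with the free RNA subtracted, and with DESeq2 they were 16575. The replicate block gave 8 calls of the 9 genes, 42 of the pathway genes and 25704 over all genes. Same-numbered mice had correlations of their deviations between -0.0498 and 0.289, over 0.1 in 13 of 23 sums. The labels tie no number to a litter, batch or day, so that the block was kept as an alternative only, and whether the numbers mark a shared condition was not tested.

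With the free RNA subtracted, levels in the highest class became 1102 CPM for Slc6a2, 35.1 for Slc22a3, 124 for Maoa, 29.0 for Htr2a, 1776 for Htr2c and 357 for Adra1a, by its construction. With the highest doublet scores left out Adra1a became 309. With barcodes of 900 to 1300 UMIs as empty droplets, chosen after the data had been seen because those of 100 to 300 UMIs held too few UMIs (a ratio for Htr2c alone), Htr2a in venous ECs was 17.6 times the free RNA.

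Differences that were not called changed sign as follows, and the cause was not tested. Slc6a4 in neuroendocrine cells was 0.08 (log2) under the replicate block, -1.22 to 2.06 with each mouse left out (2.06 without WT replicate 1) and 0.51 without Tg replicate 2. Slc22a3 in alveolar fibroblasts ranged from -1.01 to 0.05 with each mouse left out (0.05 without WT replicate 1). Maoa in general capillary ECs ranged from -0.42 to 0.40 (0.40 without WT replicate 1) and was 0.03 without Tg replicate 2 and 0.14 with clusters found in each mouse. Htr2b in lymphatic ECs ranged from -0.03 (without WT replicate 2) to 1.79 and was -0.04 with the highest doublet scores left out. Htr2c in alveolar macrophages ranged from -0.12 (without WT replicate 1) to 1.36. Adra1a in alveolar fibroblasts ranged from -0.09 (without Tg replicate 1) to 0.34 and was -0.05 with at least 2500 UMIs and -0.08 with the free RNA subtracted. Htr2b in the 5 called classes kept its direction under every alternative that gave a value (club cells gave none with clusters found in each mouse). Beside the calls lost with a mouse left out, with the free RNA subtracted or with DESeq2, Htr2b lost its call under the block in alveolar macrophages (adjusted p = 0.050), with at least 2500 UMIs in AT1 (0.054) and alveolar macrophages (0.061), and with clusters found in each mouse in AT1 (0.069) and the Tacr1 Lgr6 Vtcn1 airway secretory class (0.059). Htr2c in adventitial fibroblasts lost its call with total UMIs (1.70, adjusted p = 0.089), a scaling that moved the median of all genes by 0.13 there, 0.11 in arterial ECs and 0.24 in the empty droplets. Neuroendocrine cells gave no value with the highest doublet scores left out, having too few nuclei. Where 1 mouse was left out, the lone mouse was assumed to vary like the others. Few UMIs limit Htr2a, Htr2b in ECs, Slc22a3 and Slc6a4 outside macrophages.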
